A study of Mus musculus with 6 samples.

Results

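Lymphatic endothelial genes were examined in mouse aortic roots as a set of 8: Prox1, Lyve1, Flt4, Vegfc, Pdpn, Reln, Mmrn1 and Foxc2. Members were taken as every probe set that the array annotation assigns to 1 gene symbol, that symbol being a listed gene. This gave 16 probe sets among 34945 with a single gene, and all 8 genes among 18193. Levels were measured with Affymetrix arrays in roots of klotho-deficient mice, whose genotype is given as klotho homozygous mutant, and of homozygous wild-type mice. All mice were on the C57BL/6J albino strain and 6.0 to 6.5 weeks old. The dissected piece held the valve leaflets, the annulus and some of the ascending aortic wall, and the 3 arrays of each genotype each carried RNA pooled from 3 animals. The labels name no treatment and do not describe the mutant allele.

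Lymphatic endothelial cells line the vessels that drain fluid and leukocytes from tissue. Their identity is set by the homeobox factor Prox1, and they grow when the secreted factor VEGF-C, from Vegfc, binds the receptor VEGFR-3, from Flt4. The forkhead factor Foxc2 is needed for the valves of collecting vessels, Lyve1 encodes a hyaluronan receptor, Pdpn the surface mucin podoplanin, Mmrn1 the matrix protein multimerin 1, and Reln the secreted glycoprotein reelin. None of these transcripts belongs to lymphatic cells alone. Vegfc is made by mesenchymal and smooth muscle cells, Lyve1 also marks some macrophages, Pdpn is carried by mesothelium, Prox1 by heart muscle and Mmrn1 by platelets. In a whole root, fewer cells of a type and less RNA per cell cannot be told apart.

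The deposited signals are linear intensities with a trimmed mean of 1500.0 on every array. Background was set at 161.8, the highest signal of 27 Bacillus control probe sets. Wild-type replicate 3 stood apart in its Gapdh 3' to 5' ratio, 7.18 against 3.23 to 4.08 on the other arrays, and in its endothelial and mesothelial markers, given below. Klotho-deficient replicates 2 and 3 had 0 of 3 Y-linked genes above background, and the other 4 arrays had 3, so Y-linked transcripts were not balanced between the genotypes. Smooth muscle and fibroblast genes that mark the aortic wall and valve were all above background, 10 of 10 on every array.

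All 8 lymphatic genes were above background on all 6 arrays in their brightest probe set. Reln lay higher in klotho-deficient roots and Pdpn lower, each without overlap between the arrays of the genotypes. The other 6 genes overlapped. In limma, 0 of the 8 genes passed the threshold of an adjusted p of 0.05, where 0 of all 18193 genes (0%) did. At an unadjusted p under 0.05 there were 2 of 8, Reln and Pdpn, against 1166 of 18193 genes (6.41%); leaving out any 1 array other than wild-type replicate 1, the replicate block, median centring or the Y-linked covariate left 1 of 8, Reln, and the mean of probe sets left 1, Pdpn, while the fit over all probe sets, given below, left Reln alone of the pair. Groups without overlap made up 2 of 8 members and 13.5% of all genes, 1 member being higher (6.63% of all genes) and 1 lower (6.84%). Among genes above background on all arrays, as the 8 members were, the share was 15.2%. The median difference over the 8 was 0.01 on the log2 scale, with 4 higher and 4 lower, and -0.14 to 0.09 with 1 array left out; over all genes it was 0.003, with 50.4% higher. Every difference below is the klotho-deficient mean log2 signal less the wild-type one, with limma's SE after the ± sign. Group means of signal carry the SD of 3 arrays.

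**Figure D1:**
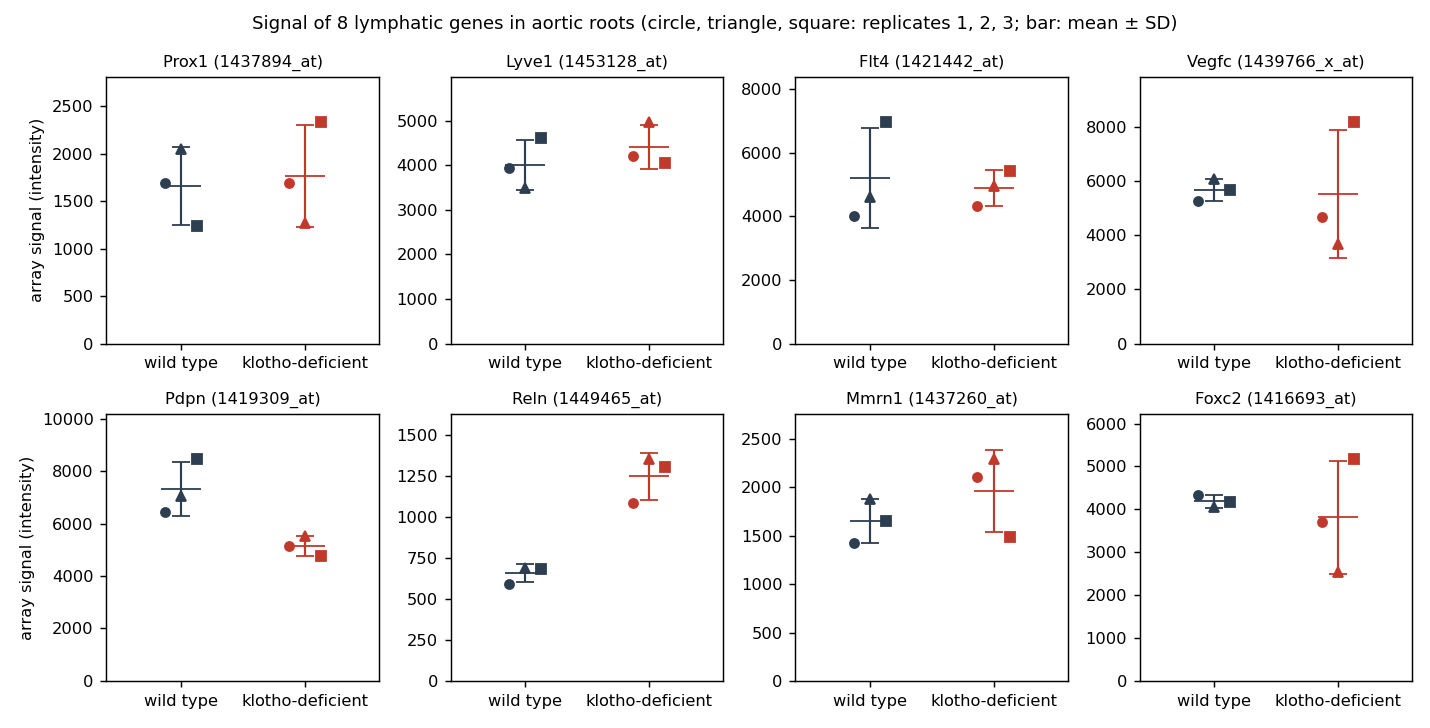
Array signal (intensity, linear axis from 0) of the brightest probe set of each of the 8 genes; circles, triangles and squares are replicates 1, 2 and 3, and bars are mean ± SD over 3 arrays. The 3 klotho-deficient Reln signals, 1087.1 to 1356.6, lie above the wild-type signals of 593.4 to 690.5; for Pdpn the order is turned, and in the other 6 panels the genotypes overlap.

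Reln measured 1087.1, 1356.6 and 1306.2 on klotho-deficient replicates 1 to 3 and 593.4, 690.5 and 686.7 on wild-type replicates 1 to 3. Every klotho-deficient array was thus above every wild-type array, and klotho-deficient replicate 1 was the lowest of its group. The means were 1250 ± 143 and 656.9 ± 55.0, a ratio of 1.9. The difference of 0.93 ± 0.18 had an unadjusted p of 0.00219 in limma, the 61st smallest of 18193, and an adjusted p of 0.643. With a covariate for the arrays without Y-linked signal, which leaves klotho-deficient replicate 1 to set the contrast, the difference was 0.73 ± 0.27 (adjusted p = 0.874 in limma, over a range of 0.3 to 0.919 across 16 alternatives). Reln has a second probe set, 1458020_at, which read 6.5 to 25.8 and was below background on all arrays, so it gives no second measure of the gene.

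Set against the mean of the rest of the set, Reln kept its own split by genotype, which is no second result. After each gene's own mean over the arrays was subtracted, Reln exceeded the mean of the other 7 genes by 0.33, 0.75 and 0.40 on the klotho-deficient arrays. It lay below that mean on the wild-type arrays, at -0.53, -0.45 and -0.50. Against the mean of 20 endothelial genes the same quantity was 0.43, 0.90 and 0.52 in klotho-deficient and -0.48, -0.40 and -0.97 in wild-type roots. On wild-type replicate 3, the lowest of these, Reln alone was at -0.39 and the endothelial mean at 0.57. Pdpn, 1 of those other 7 genes, also split by genotype after its own mean was subtracted, in the opposite direction. It was at -0.36 to -0.15 in klotho-deficient and at 0.08 to 0.47 in wild-type roots. These are descriptions and were not tested.

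Reelin acts by binding the lipoprotein receptors ApoER2, from Lrp8, and VLDLR, from Vldlr, which pass the signal to the adaptor Dab1 through Src family kinases. Lrp8 measured 476.3, 792.6 and 1102.8 on the klotho-deficient arrays and 385.8, 415.8 and 316.2 on the wild-type arrays. The groups did not overlap, with klotho-deficient replicate 1 close to the wild-type arrays and replicate 3 the highest. Its difference was 1.01 ± 0.34 (adjusted p = 0.731 in limma), and over 15 alternatives it ran from 0.36 to 1.34. The lowest came with the Y-linked covariate (adjusted p = 0.988 in limma, in a range of 0.477 to 0.988), and the highest without klotho-deficient replicate 1. Of the other Lrp8 probe sets, 1421459_a_at read 19.7 to 98.6, below background on all arrays, and 1442347_at, at 50.4 to 418.5 with 1 wild-type array above background, gave 0.17 ± 0.83.

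The second receptor, Vldlr, measured 11373.9, 7646.6 and 9062.1 in klotho-deficient roots and 11067.9, 10288.8 and 7040.8 in wild type. The groups overlapped fully, at a difference of -0.01 ± 0.26, and its other 5 probe sets ran from -0.47 to -0.07. Dab1 was near or under background, with 185.1 on klotho-deficient replicate 2 as its single signal above it. Of the Src family kinases, Fyn lay lower without overlap, at 797.0 to 1083.7 against 1091.0 to 1238.6 (-0.31 ± 0.19), while its other probe set overlapped at -0.21 ± 0.25. Yes1 overlapped in its brightest probe set, at 0.34 ± 0.37, and in 1418470_at, at 0.32 ± 0.27. It lay higher without overlap in 1449090_a_at, at 0.56 ± 0.29, and in 1458878_at, where 0 of 3 wild-type arrays were above background. In the 13 reelin pathway genes other than Reln itself, 0 were called higher and 0 lower, and the median difference was 0.00. An unadjusted p under 0.05 in limma was reached by 1, which was Lrp8, against 6.41% of all genes. Lrp8 was no longer under 0.05 without klotho-deficient replicates 2 or 3 or wild-type replicates 1 or 3, or with the Y-linked covariate, array weights or the mean of probe sets.

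Pdpn, the other gene without overlap, measured 5160.3, 5518.2 and 4770.0 on the klotho-deficient arrays and 6439.3, 7033.3 and 8465.9 on the wild-type arrays. Wild-type replicate 3 was the highest of all. The means were 5150 ± 374 and 7313 ± 1042, a ratio of 0.708, and the difference was -0.50 ± 0.19 (unadjusted p = 0.0364, adjusted p = 0.763 in limma). Without wild-type replicate 3 the difference was -0.39 ± 0.18, with an unadjusted p of 0.0836 in limma. Pdpn has 1 probe set on this array.

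Podoplanin is also a mesothelial protein, and most mesothelial markers lay lower in klotho-deficient roots, as Pdpn did. Array by array the order differed. After each gene's own mean was subtracted, the mean of 11 mesothelial genes was 0.16 on klotho-deficient replicate 1. That was above wild-type replicates 1 (0.08) and 2 (-0.01). For Pdpn the same klotho-deficient array was at -0.24, below both (0.08 and 0.20). Of 11 mesothelial genes, 9 lay lower and 2 higher in klotho-deficient roots, with a median of -0.66 against 0.003 over all genes, and 0 passed in limma. Without wild-type replicate 3 the median was -0.37, without klotho-deficient replicate 3 it was -0.41, and with the Y-linked covariate it was -0.31. Their summed signal was 27670 to 46450 on the klotho-deficient arrays and 43370 to 69670 on the wild-type arrays. All 11 were above background on every array. Krt19, a keratin of simple epithelia and mesothelium, was 1201.3 to 2349.4 against 2693.4 to 4739.8 (-0.85 ± 0.36). Rspo1, a secreted amplifier of Wnt signalling, gave -0.80 ± 0.27, and Lrrn4 and the uroplakin Upk3b, both mesothelial surface proteins, gave -0.77 ± 0.32 and -0.66 ± 0.30. The 2 that lay higher were Krt18, at 0.40 ± 0.27, and Muc16, at 0.04 ± 0.45. Set against the mesothelial list mean on each array, Pdpn was at -0.41, -0.03 and 0.38 in klotho-deficient and at 0.00, 0.22 and -0.16 in wild-type roots. On that scale the genotypes overlapped, but the klotho-deficient arrays also spread more widely than for Pdpn alone, which ran from -0.36 to -0.15. The part of mesothelial tissue in the Pdpn difference was not tested beyond these values.

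The promoters of Reln and Pdpn are shown because these were the members whose arrays did not overlap. Each is the stretch of 250 bases before the gene's start on the minus strand, from RefSeq on GRCm38.p6, printed 5′ to 3′, with the hexamer CACGTG in capitals. The Reln window is chr5:22344706-22344955, next to the gene at chr5:21884454-22344705, and the Pdpn window is chr4:143299565-143299814, next to the gene at chr4:143267409-143299564.
Reln: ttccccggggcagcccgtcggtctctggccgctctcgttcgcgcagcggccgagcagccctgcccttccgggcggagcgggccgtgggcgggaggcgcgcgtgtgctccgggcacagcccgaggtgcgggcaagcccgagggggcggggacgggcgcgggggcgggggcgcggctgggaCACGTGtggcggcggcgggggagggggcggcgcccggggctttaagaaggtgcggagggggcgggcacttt
Pdpn: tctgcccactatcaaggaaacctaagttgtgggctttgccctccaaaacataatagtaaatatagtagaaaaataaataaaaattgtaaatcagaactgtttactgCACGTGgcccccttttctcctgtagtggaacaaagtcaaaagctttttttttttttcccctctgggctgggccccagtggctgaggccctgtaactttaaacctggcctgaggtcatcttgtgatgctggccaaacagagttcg
CACGTG reads the same on both strands and is the E-box letters bound by many basic helix-loop-helix factors. Each window holds it once, from base 71 to base 66 before the start in Reln and from base 144 to base 139 in Pdpn. Of 32851 promoter windows of this length, 6.0% hold it, a share not matched for CpG content. The hexamer was chosen after these sequences were read, so its presence in both is no test against that share. Apart from this hexamer the windows are unlike. Reln has 37 CpG dinucleotides, 80.0% G and C and 6 GC boxes (GGGCGG on either strand, present in 32.7% of windows). Pdpn has 2 CpG dinucleotides, 43.2% G and C and 0 GC boxes, where the median window has 6 and 52.4%. Pdpn holds 1 forkhead core (GTAAACA or its complement, in 3.2% of windows) and 1 nuclear receptor half-site (AGGTCA or its complement, in 14.0%), and Reln has 0 of either. These letters are a description, and binding was not measured.

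Promoter windows were found for 6 of the 8 genes, 7 windows in all, with 2 for Prox1; the genes not matched were Lyve1 and Foxc2. CACGTG was in 0 of the windows of Prox1, Vegfc, Flt4 and Mmrn1. GC boxes numbered 3 in Flt4, 2 in Vegfc and 1 and 2 in the Prox1 windows. The SOX core AACAAT, of the letters bound by SOX factors such as Sox18, was in the Mmrn1 window once and in 9.4% of all windows, searched on both strands.

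The transcription factors of lymphatic identity overlapped between genotypes. Prox1 measured 1690.2, 1264.6 and 2337.9 in klotho-deficient and 1686.7, 2050.5 and 1235.7 in wild-type roots. Both groups held low and high arrays, and the difference was 0.08 ± 0.31 (adjusted p = 0.978 in limma); its sign turned without klotho-deficient replicate 3 (-0.15), without wild-type replicate 3 (-0.12) and with array weights (-0.08). The Prox1 probe sets disagreed. Probe set 1421336_at read 494.9, 441.5 and 548.4 against 420.9, 334.8 and 282.5, without overlap, at 0.53 ± 0.24 (adjusted p = 0.926 in limma over 45037 probe sets), and 1457432_at gave 0.03 ± 0.31.

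Foxc2 measured 3707.6, 2546.8 and 5175.3 in klotho-deficient and 4328.5, 4047.8 and 4170.2 in wild-type roots. The wild-type arrays lay within the klotho-deficient range, at a difference of -0.19 ± 0.29 (adjusted p = 0.92 in limma), with 0.07 without klotho-deficient replicate 2. The factors that act before Prox1 in vessel fate also overlapped in their brightest probe sets. Sox18, which switches on Prox1 in the embryo, gave -0.23 ± 0.29, and Nr2f2, the orphan receptor COUP-TFII of veins and lymphatics, gave 0.10 ± 0.23, while its other 5 probe sets ran from -0.45 to 0.66. The lowest of these, 1431237_at, did not overlap, with 494.3, 507.5 and 399.3 against 603.4, 621.5 and 674.5.

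The growth factor and its receptor did not separate the genotypes. Vegfc measured 4691.9, 3681.2 and 8198.6 in klotho-deficient roots and 5277.8, 6067.2 and 5653.4 in wild type. Klotho-deficient replicates 2 and 3 were the lowest and the highest of all arrays, and the difference was -0.12 ± 0.32 (adjusted p = 0.96 in limma). Its sign turned without klotho-deficient replicate 2 (0.13) and in the mean of its probe sets (0.09). The other Vegfc probe sets, 1419417_at and 1440739_at, gave 0.22 ± 0.28 and 0.17 ± 0.28.

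Flt4 measured 4311.6, 4935.4 and 5425.0 in klotho-deficient and 4020.8, 4602.7 and 6973.6 in wild-type roots. Its highest signal was on wild-type replicate 3, and its lowest was also wild-type. The difference was -0.05 ± 0.26 (adjusted p = 0.983 in limma), and it turned to 0.18 without wild-type replicate 3 and to 0.03 without klotho-deficient replicate 1 or with array weights. The other Flt4 probe set, at 1756.2 to 2677.4 in wild type and 1533.8 to 1865.5 in klotho-deficient roots, gave -0.22 ± 0.25. The related ligand Vegfd was at -0.29 ± 0.19, the VEGF-C processing cofactor Ccbe1 at 0.20 ± 0.18 and the co-receptor Nrp2 at -0.09 ± 0.19, none of them past the threshold.

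The surface and matrix products Lyve1 and Mmrn1 lay slightly higher in the klotho-deficient means, with overlap. Lyve1 measured 4203.1, 4980.3 and 4055.5 against 3928.0, 3498.7 and 4609.8 (0.14 ± 0.19, adjusted p = 0.914 in limma), and its other probe set gave 0.25 ± 0.21. Mmrn1 measured 2103.5, 2295.7 and 1492.5 against 1426.8, 1880.5 and 1657.7 (0.23 ± 0.24, adjusted p = 0.884 in limma). In both genes klotho-deficient replicate 2 was the highest array.

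The second Mmrn1 probe set, 1430621_at, read 179.6, 324.1 and 159.1 in klotho-deficient roots and 119.2, 102.2 and 125.1 in wild type. The groups did not overlap, but 0 of 3 wild-type arrays and 2 of 3 klotho-deficient arrays were above background, so the wild-type level is only bounded. The klotho-deficient mean log2 signal was 1.3-fold above the background signal, though klotho-deficient replicate 3 was itself below it. That ratio rested on klotho-deficient replicate 2, and was 1.04-fold without it. Its adjusted p was 0.91 in limma over all probe sets. Mmrn1 is stored in platelets, and of 7 platelet genes 4 were above background on any array. Over these 4, 3 lay higher and 1 lower, with a median of 0.31. Treml1, among the higher ones, entered through klotho-deficient arrays alone, so the filter favoured its direction. Treml1, a platelet granule receptor, read 196.2, 183.4 and 138.1 against 114.8, 44.3 and 101.8, again without overlap and with 0 of 3 wild-type arrays above background (unadjusted p = 0.0348, adjusted p = 0.759 in limma). The brighter Gp1bb, a subunit of the platelet von Willebrand factor receptor, gave 0.42 ± 0.23, the chemokine Ppbp 0.21 ± 0.75 and the chemokine Pf4 -0.17 ± 0.33. The summed platelet signal was 9000 to 14400 in klotho-deficient and 9469 to 18590 in wild-type roots, and its part in the Mmrn1 values was not tested.

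**Figure D2:**
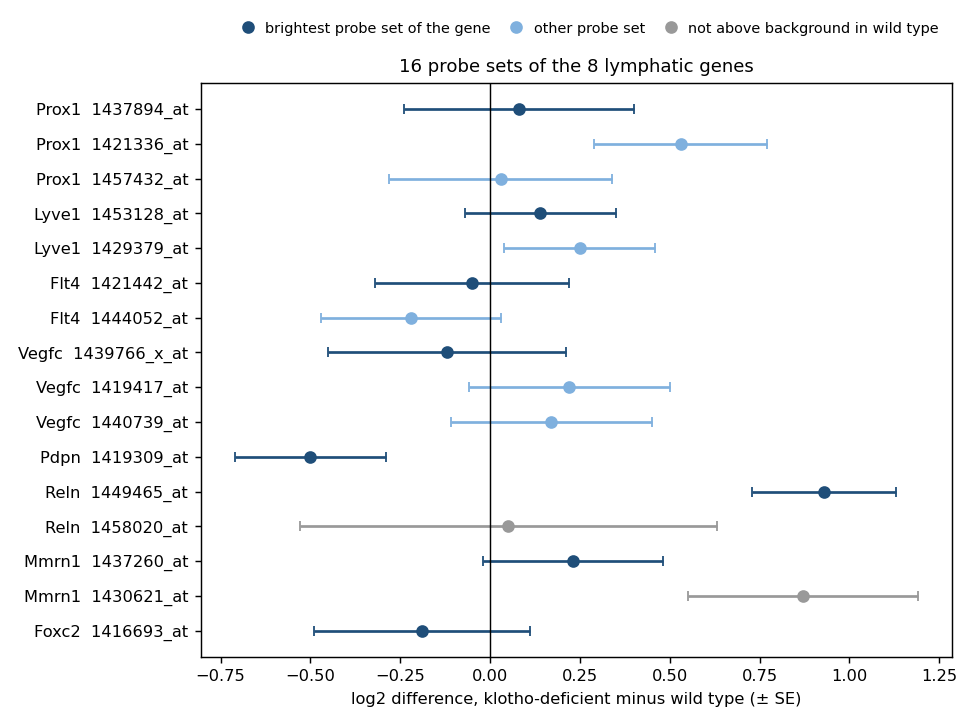
Log2 difference, klotho-deficient minus wild type, of the 16 probe sets, with bars of ± SE from limma; dark blue is the brightest probe set of a gene, light blue another one, and grey one that is not above background in wild type. Reln 1449465_at lies at 0.93 and Pdpn at -0.50, and the probe sets of Vegfc fall on both sides of 0.

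Among the 16 probe sets, 4 had no overlap between genotypes, 3 of them higher (Reln, the second Prox1 and the dim Mmrn1 probe sets) and 1 lower (Pdpn), against 11.7% of 45037 probe sets. In the fit over probe sets 0 of 16 passed, as 0 of all probe sets (0%) did, and 2 had an unadjusted p under 0.05, which were Reln 1449465_at (0.00367) and the dim Mmrn1 probe set (0.0338). Pdpn had an unadjusted p of 0.0519 in that fit, at rank 2504 of 45037, so fewer than 2504 of all probe sets were under 0.05.

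The 8 genes did not share 1 pattern over the arrays. Likeness was measured as the root-mean-square difference of log2 signal over the 6 arrays, after each gene's own mean was taken out. Of 28 pairs, Vegfc and Foxc2 were the closest, at 0.13. Prox1 followed, at 0.24 from Vegfc and 0.26 from Foxc2. These genes were all lowest or nearly so on klotho-deficient replicate 2 and highest on klotho-deficient replicate 3. Lyve1 was 0.24 from Flt4 and 0.24 from Mmrn1. The farthest pair was Pdpn and Reln, at 0.73. Vegfc, a ligand made outside lymphatic endothelium, thus varied more like Foxc2 and Prox1 than like Flt4 (0.38), Lyve1 (0.47) or Mmrn1 (0.56).

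**Figure D3:**
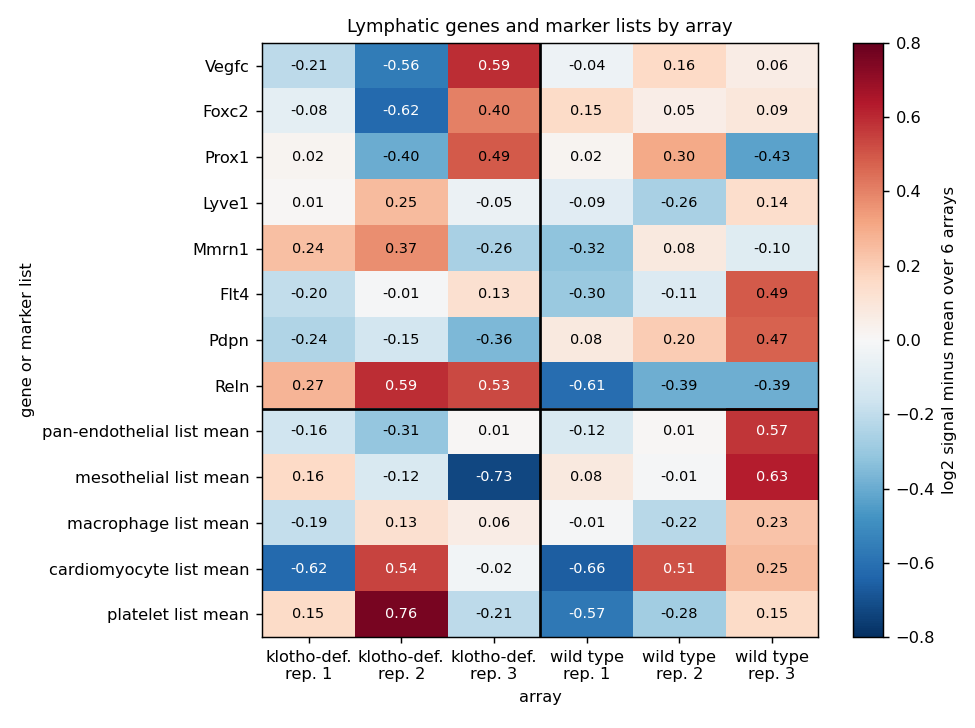
Log2 signal minus the mean over 6 arrays, shown as colour and number, for the 8 genes (upper rows) and for the mean of 5 marker lists (lower rows), with 1 column for each array. Vegfc runs from -0.56 to 0.59 within the klotho-deficient arrays, whereas Reln is above 0 on all klotho-deficient arrays and below 0 on all wild-type arrays.

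Genes elsewhere in the genome that followed the members most closely were taken from the 12150 genes above background on all arrays. For Prox1 the nearest was Pdgfrb, the PDGF receptor of mural cells and fibroblasts, at 0.057, followed by Zfp316 and Vasn. Vegfc was nearest to Nucb1 (0.034), Zfp407 and Sall2, and Foxc2 to Psmd7, a proteasome subunit (0.041), Arsb and Lrig1. Flt4 was nearest to Atp9a (0.041), Cops6 and Grasp, and Lyve1 to Smarcal1 (0.03), 5530601H04Rik and Dph5. Mmrn1 was nearest to Polg2 (0.049), Sv2b and Asah2. Pdpn was nearest to Glt8d2 and the dynein light chain Dynll1 (0.06 each) and to Yae1d1. Reln had the widest gap to its nearest genes, Gm1976 at 0.098, Zfp956 at 0.099 and the NAD-synthesis enzyme Nmnat3 at 0.10. Zfp956 measured 1508.0 to 1747.8 against 787.2 to 1041.1 and Nmnat3 877.6 to 1205.9 against 547.7 to 627.4. Both were picked for closeness to Reln over these same arrays, so their separation follows from the choice (adjusted p = 0.67 each in limma).

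Other genes of lymphatic development leaned neither way beyond the threshold. Of 42 measured, 17 lay higher and 25 lower, the median was -0.10 (-0.01 when wild-type replicate 3 or klotho-deficient replicate 2 was left out), and limma called 0 higher and 0 lower. There were 8 without overlap, 19%, against 13.5% of all genes and 15.2% of genes above background on all arrays. An unadjusted p under 0.05 in limma was reached by 1 gene, against 6.41% of all genes. That gene was Stab2, a hyaluronan scavenger receptor of sinusoidal and lymphatic endothelium, at 259.7, 266.5 and 260.5 against 176.1, 169.7 and 207.3. The groups were separate but close to background, at 0.51 ± 0.17 (adjusted p = 0.723 in limma). Its unadjusted p was no longer under 0.05 without klotho-deficient replicates 1 or 2 or wild-type replicates 1 or 2, with quantile normalization, median centring, the trended and robust prior or the Y-linked covariate. Sema3a, a repulsive guidance cue needed for lymphatic valves, gave 0.47 ± 0.21 in its brightest probe set, 0.71 ± 0.55 and 0.20 ± 0.43 in the others.

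The atypical chemokine receptors, scavengers that do not signal through G proteins, went different ways. Ackr4, which clears CCL19 and CCL21, measured 8121.1, 8227.4 and 10972.8 against 7251.3, 6998.2 and 6122.8 (0.41 ± 0.20). A second bright Ackr4 probe set, 1437669_x_at, also lay higher without overlap (0.50 ± 0.22). A dim one, 1426139_a_at, overlapped at -0.83 ± 0.47 and was below background on klotho-deficient replicate 1. Ackr3, a receptor for CXCL12 and adrenomedullin, measured 21950.0 to 28128.8 against 30265.9 to 37951.4 (-0.40 ± 0.19). Ackr2, of lymphatic endothelium, gave -0.69 ± 0.35 with overlap. None passed the threshold.

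**Figure D4:**
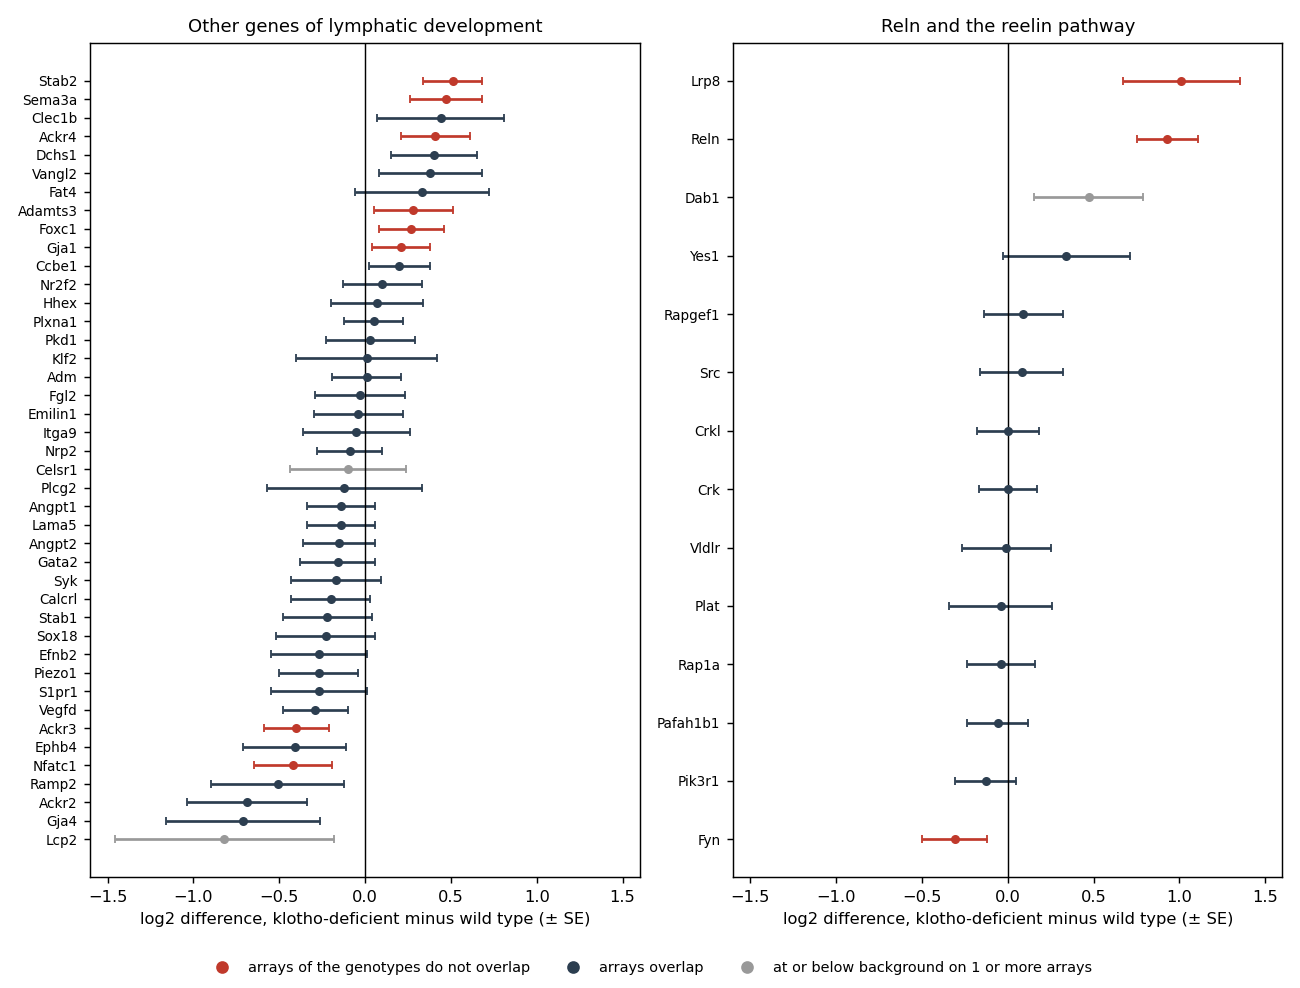
Log2 difference, klotho-deficient minus wild type, with bars of ± SE from limma, for 42 other genes of lymphatic development (left) and for Reln with 13 genes of the reelin pathway (right); red marks genes whose arrays do not overlap between genotypes, dark blue those that overlap, grey those at or below background on 1 or more arrays. Lrp8 at 1.01 and Reln at 0.93 are the highest of the right panel, and the left panel runs from -0.82 for Lcp2 to 0.51 for Stab2.

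Most markers of all endothelium lay lower in klotho-deficient roots, to a degree that changed with the wild-type array left out. The lymphatic set had 4 genes higher and 4 lower. Of 20 endothelial genes 17 were lower and 3 higher, with a median of -0.27, and 0 passed in limma. Without wild-type replicate 3 the median was -0.06, with 13 lower and 7 higher, and without wild-type replicate 1 it was -0.45 with 20 lower. The summed signal was 62010 to 77560 on the klotho-deficient arrays and 70410 to 112500 on the wild-type arrays, the top being wild-type replicate 3. All 20 were above background on all arrays. The angiopoietin receptor Tek measured 6194.9, 5509.7 and 6068.6 against 8317.6, 8152.2 and 11234.7 (-0.63 ± 0.20), without overlap. The adhesion molecule Icam2 gave -0.81 ± 0.32, Mmrn2, the endothelial relative of Mmrn1, -0.79 ± 0.32, and the orphan receptor Tie1 -0.44 ± 0.22. The 3 that lay higher were Robo4, at 0.24 ± 0.32, Eng, at 0.13 ± 0.35, and Pecam1, at 0.07 ± 0.26. Whether the lymphatic and the general endothelial genes differed from each other was not tested.

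Markers of the other cells that can carry these transcripts gave 0 calls. Of 14 macrophage genes, 8 lay higher and 6 lower (median 0.09), with summed signals of 63300 to 76850 against 57250 to 82350; Cd163, a scavenger receptor of tissue macrophages, gave 0.29 ± 0.19 and Timd4, of resident macrophages, -0.65 ± 0.29. Of 10 heart muscle genes, 5 lay higher and 5 lower (median -0.04), with sums of 66990 to 99270 against 58870 to 91960. After each gene's own mean was subtracted, their mean was -0.62, 0.54 and -0.02 on klotho-deficient replicates 1 to 3. On wild-type replicates 1 to 3 it was -0.66, 0.51 and 0.25, so it varied with the replicate number in both genotypes. The natriuretic peptide Nppa was the most variable of those named, at 1.15 ± 1.01, with Myl7 at -0.56 ± 0.41. Of the 6 Schwann cell and neuron genes above background on any array 4 lay higher and 2 lower (median 0.19), Cdh19, of Schwann cell precursors, being at 0.39 ± 0.27. Of 8 lymph node and thymus genes, 1 was above background on all arrays, and of the 6 above it on any array 1 lay higher and 5 lower (median -0.50). Of the lower ones, Cd3g, Rag1 and Foxn1 were above background on wild-type arrays alone. The filter itself favoured their direction, so this count and median are no measure of a lean. The T cell receptor component Cd3g read 130.8, 93.6 and 161.7 against 179.7, 224.6 and 220.3, with 0 of 3 klotho-deficient arrays above background, so that level is only bounded there. Among 10 fibroblast and smooth muscle genes 8 lay higher and 2 lower (median 0.01), with the proteoglycan Lum at 0.23 ± 0.21.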

How the data were processed

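The authors deposited linear array intensities, 1 for each of 45101 probe sets and 6 arrays. The submitters' processing notes name RMA, without a version. The sources used here do not say which step gave a linear scale or which genome build applied. Array medians ran from 425.6 to 556.6 at a trimmed mean of 1500.0 each, so the arrays did not share 1 distribution, as quantile normalization would give. Here log2 of each intensity was taken, without a pseudocount or another normalization. The annotation named 1 gene for 34945 probe sets, several for 932 and none for 9160; 64 controls were left out. RefSeq (GRCm38.p6) held the gene identifier of 34741, and 0 symbols changed. The probe set of highest mean log2 intensity stood for a gene. The genotype test was limma 3.58.1 (R 4.3.3) with lmFit and eBayes (two-sided, adjusted by Benjamini-Hochberg over all 18193 genes or 45037 probe sets, threshold 0.05; 4 residual and 2.1 prior degrees of freedom), and the procedure was tested on simulated data. The number of arrays limits the precision. p-values reflect the spread between pools, not mice.

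The members, lists and tests were chosen with earlier results of these data known, and the promoter hexamer CACGTG after the sequences were read. Named were all members and their probe sets; up to 4 genes of smallest p in each list among those above background on at least 1 array; Vegfd, Ccbe1, Nrp2, Sox18, Nr2f2, Lrp8, Vldlr and Dab1; and 3 genes of most similar pattern for each member. Ackr2, Lcp2, Krt18, Muc16, Robo4, Eng, Pecam1 and the Y-linked genes as a group were added after their values were seen. Alternatives were each array left out, a replicate block, quantile normalization, median centring, an offset of 100, a filter on dim genes, a trended and robust prior, array weights, the mean of probe sets, all probe sets, and a covariate for arrays without Y-linked signal. Figures used matplotlib 3.10.9.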

Additional observations from a re-analysis of the deposited data

How the results depend on the processing

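None of the 8 members was called under any of the 16 alternatives in limma. Reln (0.49 to 1.02) and Mmrn1 (0.11 to 0.55) kept a positive and Pdpn (-0.59 to -0.39) a negative difference under all of them, as Lyve1 (0.05 to 0.25) kept a positive one. The lowest Reln value came from the mean of its probe sets, which takes in the one below background. With each array left out in turn, Prox1 ran from -0.15 to 0.29, Flt4 from -0.22 to 0.18, Vegfc from -0.44 to 0.13 and Foxc2 from -0.44 to 0.07. Array weights gave -0.08 for Prox1 and 0.03 for Flt4, and the mean of probe sets gave 0.09 for Vegfc; the cause was not tested. Over all genes, where 0 were called, leaving out an array gave 0 higher and 0 to 1 lower (Eif2s3y, a Y-linked gene, without klotho-deficient replicate 1). The offset of 100, the filter on dim genes and array weights each called 1 gene higher (Dbp), and the trended and robust prior 2 (Dbp and Sphk2). Replicate numbers were not treated as pairing the arrays in the main fit. Same-numbered deviations correlated at 0.165, -0.0097 and 0.161, so 1 of the 3 pairs showed no positive correlation over all genes. The heart muscle list mean was nonetheless alike on arrays numbered 1 (-0.62 and -0.66) and 2 (0.54 and 0.51), less so on those numbered 3 (-0.02 and 0.25). A part shared by same-numbered arrays was not tested beyond these values and the block. Different-numbered arrays correlated at -0.199 to 0.0716, below the values of replicates 1 and 3, and 4 of 6 arrays correlated best with their own number. A replicate block called 0 genes and gave 0.93 ± 0.17 for Reln (adjusted p = 0.725 in limma).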
